A study of Mus musculus with 11 samples.

Results

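Colonies grown in soft agar from RT101 cells were compared with colonies grown from JB6 cells given basic fibroblast growth factor (bFGF). JB6 is a mouse epidermal cell line that does not form colonies in agar by itself, and RT101 is a tumorigenic variant of it. The 6 colony arrays were chosen by their titles out of the 11 arrays of the series: 3 of RT101 colonies and 3 of bFGF-JB6 colonies. The remaining 5 arrays, 2 of RT101 and 3 of bFGF-JB6 cells as attached monolayers, served as the reference for what the lines differ in without agar. RT101 cells received no treatment, while JB6 clone 41-5A received 10 ng/ml bFGF in agar; all colonies were taken on day 7, and the medium held 4% serum. The labels call the bFGF-JB6 monolayers treated but give no dose or time for them. Each line is a single cell line or clone, and the 6 colony arrays hold no JB6 colonies without bFGF and no RT101 colonies with it, so the effect of the line and that of bFGF cannot be told apart. The series set out to compare irreversible growth in agar (RT101) with growth that depends on an added factor and is reversible (bFGF-JB6).

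Cells of an epithelium normally need attachment to divide, and growth in agar is the usual laboratory measure of the loss of that need. bFGF binds FGF receptors together with heparan sulphate proteoglycans and signals mainly through the RAS-ERK cascade, which drives G1 progression and is damped by feedback inhibitors such as the Sprouty proteins. Colonies also build and cut their own surroundings: collagens and proteoglycans form the matrix, metalloproteinases and cathepsins degrade it, and TIMPs hold the metalloproteinases in check. Dividing cells need membrane lipid, and the enzymes of cholesterol synthesis are induced together by SREBP2 when sterol in the endoplasmic reticulum is low.

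The values are log2 signals of Affymetrix probe sets, with 1 probe set, the brightest, for each of 12393 genes. Where averaging the probe sets of a named and called gene moved its difference by over 1.5 times, that average or its adjusted p is given as well. Array medians lay between 5.82 and 5.95, and arrays of the same colony group correlated at 0.989 to 0.998 while RT101 and bFGF-JB6 colony arrays correlated at 0.9566 to 0.9591. Lower quartiles of 3.78 to 3.91 mark the bottom of the scale, where differences are compressed. On bFGF-JB6 colonies replicate 3 the Gapdh control was brighter at the 3' than at the 5' end by 0.35 on the log2 scale, and on bFGF-JB6 monolayer replicate 1 by 0.19, against -0.08 to -0.01 on the other 9 arrays. Whether replicates are separate cultures is not in the labels, and p-values rest on the spread of these arrays alone, possibly a technical spread. Epidermal markers were weak in both kinds of colony: 14 of the 29 measured genes of keratins and epidermal differentiation were at or near that bottom in both, among them Krt14 (3.78 ± 0.08 in RT101 and 3.80 ± 0.04 in bFGF-JB6 colonies, mean ± SD, n = 3 each), and E-cadherin, Cdh1, lay there too (2.39 ± 0.06 and 2.45 ± 0.04). Vimentin, Vim, an intermediate filament of mesenchymal cells, was strong in both (13.06 ± 0.02 and 12.87 ± 0.09, difference 0.19, and 0.42 over its probe sets). The epidermal list averaged 4.29 to 4.39 on RT101 and 4.41 to 4.51 on bFGF-JB6 colony arrays. Its other members lay above the bottom in either or both kinds of colony, and the share of all genes near the bottom in both was not counted. Genes that mark other cell types gave averages of 4.09 to 4.16 over 18 macrophage markers on RT101 colony arrays and 4.44 to 4.55 on bFGF-JB6 colony arrays. The general leukocyte gene Ptprc was near the bottom in both (2.47 ± 0.09 and 2.53 ± 0.16), as was the endothelial gene Pecam1 (3.28 ± 0.004 and 3.25 ± 0.03). The fat cell hormone gene Adipoq lay there as well (2.80 ± 0.09 and 3.03 ± 0.18). Ptprc, Pecam1 and Adipoq were named after their values were seen. Near the bottom in both were 7 of 18 macrophage, 7 of 13 endothelial and 5 of 9 adipocyte markers. The other members lay above it in either or both kinds of colony. All samples are bulk samples, in which fewer cells of a type and less RNA per cell cannot be told apart.

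RT101 colonies differed from bFGF-JB6 colonies in a large part of the measured genes. Of 12393 genes, 5372 (43.3%) passed limma's moderated test at 0.05 after Benjamini-Hochberg adjustment and are named called: 2809 (22.7%) were higher and 2563 (20.7%) lower in RT101 colonies. At a difference of 2-fold or more, 630 (5.08%) were higher and 617 (4.98%) lower. The median difference over all genes was 0.003 on the log2 scale. The count of called members in a gene list is to be read against these shares.

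The gene furthest above its level in bFGF-JB6 colonies was Syce2, a component of the meiotic synaptonemal complex, with log2 signals of 9.19, 9.17 and 9.27 in RT101 and 3.84, 3.82 and 3.79 in bFGF-JB6 colonies. All 3 bFGF-JB6 colony arrays lay at the bottom of the scale, and the difference was 42.0-fold (limma adjusted p = 1.39e-14, with an SE of 0.08 for the log2 difference). Olfm1, a secreted olfactomedin-domain protein, stood 5.19 higher on the log2 scale, and the small leucine-rich proteoglycans Ogn (osteoglycin) and Aspn (asporin) stood 4.94 and 4.06 higher. Adm, the vasodilator peptide adrenomedullin (3.58), Cav1, the caveolar coat protein caveolin-1 (3.53), and Cavin2, another caveolar protein (3.14), were also among the 12 genes with the largest positive differences. The rest of these were Myzap, a junction protein known from heart (3.45), the transcription factor gene Bnc1 (3.44), the sterol carrier gene Stard4 (3.25), the collagen VIII chain gene Col8a1 (3.17) and the prostaglandin E2 receptor gene Ptger4 (3.17).

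The negative differences were larger. S100a8, a calcium-binding protein of inflamed epidermis and neutrophils, had log2 signals of 3.44, 3.32 and 3.73 in RT101 and 11.49, 11.69 and 11.66 in bFGF-JB6 colonies, -8.12 on the log2 scale (SE 0.11, adjusted p = 1.39e-14). The 3 RT101 arrays lay at the bottom of the scale, which makes this difference a compressed one. Lgals3, the galactose-binding lectin galectin-3, measured 5.12, 4.78 and 4.64 against 12.10, 12.04 and 12.16, a log2 difference of -7.25, and the mesenchymal cadherin gene Cdh11 2.56, 2.75 and 2.79 against 9.27, 9.47 and 9.83, a difference of -6.82. For Cdh11, too, the RT101 arrays were at the bottom of the scale. The other 9 were Glipr1 (-6.66), the aldehyde dehydrogenase gene Aldh3a1 (-6.62), the lysosomal protease gene Ctsz (-6.15), Prl8a9 of the prolactin family (-5.85), the proto-oncogene Mycn (-5.72), the protease inhibitor gene Slpi (-5.66), the collagenase gene Mmp13 (-5.57), the glutathione transferase gene Mgst1 (-5.56) and the secretogranin gene Scg2 (-5.55). Mycn and Mgst1 rest on their brightest probe sets: the other 2 of Mycn stood at 0.07 and 0.26 and the other of Mgst1 at -0.013, none of them called, and the averages were -1.80 and -2.79. The prolactin family has close relatives, so the probe set of Prl8a9 may read more than 1 gene.

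**Figure D1:**
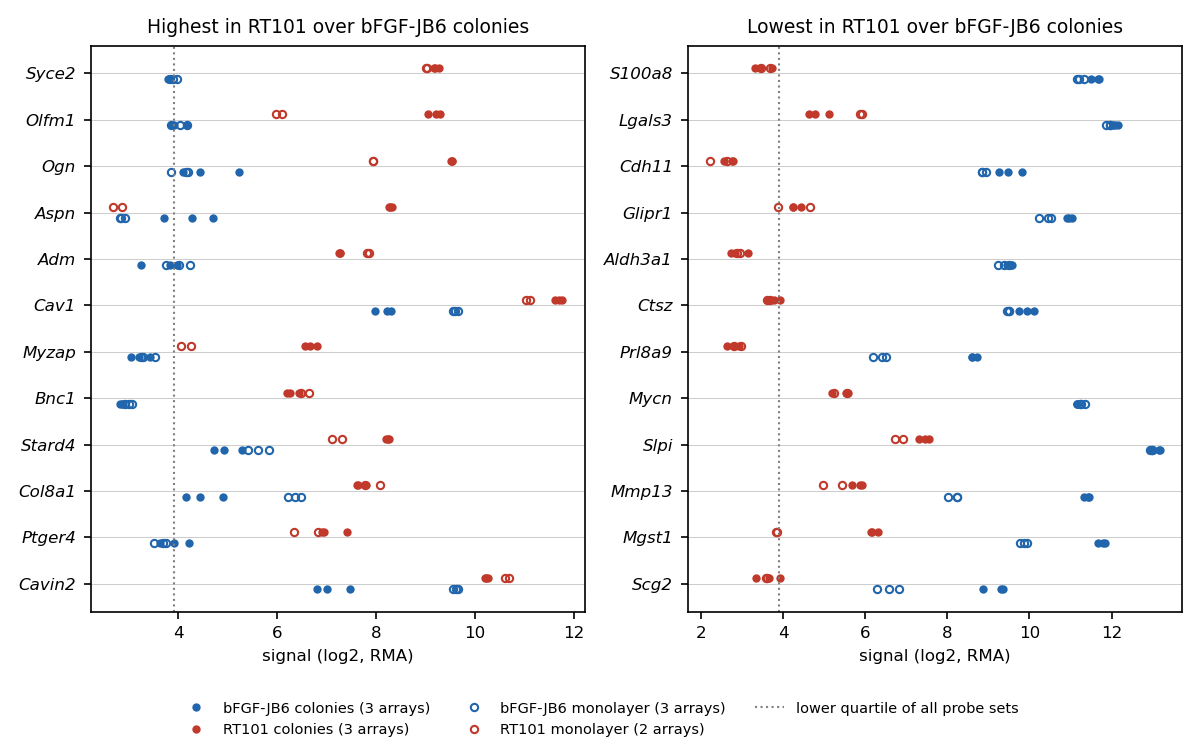
Log2 signals (horizontal axis) of the 12 genes with the largest positive difference (left) and the 12 with the largest negative difference (right) between RT101 and bFGF-JB6 colonies; filled points are colony arrays, open points monolayer arrays, red RT101 and blue bFGF-JB6, and the dotted line is the highest lower quartile of the arrays (3.91). The genes were chosen among those whose colony groups do not overlap, each on its brightest probe set; for Aspn the monolayer arrays of the lines lie together, with a monolayer difference of -0.08, while for Mycn it is -5.89.

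Genes of cell division were higher in RT101 colonies. All 26 measured mitosis genes were called higher and none lower (background 22.7% and 20.7%), 20 of them by 2-fold or more, with a median log2 difference of 1.83. Of 29 measured DNA replication genes 26 were called higher and none lower, 11 by 2-fold or more, with a median of 0.87. The median over all genes was 0.003.

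The promoters of the 3 mitosis genes of largest difference that hold both motifs are shown, because the members moved together and many of them share 2 short motifs known from genes of this phase: the cell cycle homology region, TTTGAA, to which the DREAM and MuvB complexes bind, and the CCAAT box, to which NF-Y binds. Each stretch holds the 150 bases before and the 50 after the annotated start, read 5′ to 3′ from RefSeq (GRCm38.p6, plus strand), with matches to TTTGAA or CCAAT on either strand in capitals. Bub1b lies at chr2:118598061-118598260, Plk1 at chr7:122159285-122159484 and Cenpa at chr5:30666736-30666935.
Bub1b: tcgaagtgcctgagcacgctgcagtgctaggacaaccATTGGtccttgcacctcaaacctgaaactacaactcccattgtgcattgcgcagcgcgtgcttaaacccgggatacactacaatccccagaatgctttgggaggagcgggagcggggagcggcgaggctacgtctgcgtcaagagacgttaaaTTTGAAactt
Plk1: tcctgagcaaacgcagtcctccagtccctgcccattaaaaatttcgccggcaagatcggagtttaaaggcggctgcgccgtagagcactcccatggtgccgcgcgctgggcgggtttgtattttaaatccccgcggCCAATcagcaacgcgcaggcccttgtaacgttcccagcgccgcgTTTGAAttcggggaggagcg
Cenpa: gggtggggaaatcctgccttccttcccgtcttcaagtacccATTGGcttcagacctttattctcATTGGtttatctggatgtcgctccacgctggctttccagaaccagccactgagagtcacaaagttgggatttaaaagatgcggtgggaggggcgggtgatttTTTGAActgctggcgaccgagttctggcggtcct
TTTGAA, on either strand, was found in the window of 250 bases before to 50 after the start for 15 of the 21 mitosis members with a promoter in the table, and CCAAT for 18 of 21.
Counted over promoters, the shares were 72.7% and 86.4% of 22, against 17.9% and 37.4% of all 32851 promoters of this length in the table. The motifs were searched separately and may overlap; a match describes letters and not a site of binding.

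Cenpe, the kinetochore motor, had the largest difference of the list, with log2 signals of 6.05, 6.16 and 6.10 in RT101 and 3.74, 3.62 and 3.84 in bFGF-JB6 colonies, a log2 difference of 2.37, with the bFGF-JB6 arrays at the bottom of the scale (SE 0.11, limma adjusted p = 1.19e-09). Bub1b, which encodes the spindle checkpoint kinase BubR1, measured 8.67, 8.70 and 8.57 against 6.38, 6.41 and 6.34, 4.82-fold (SE 0.08, adjusted p = 4.51e-11). Plk1, the polo-like kinase of mitotic entry, measured 8.84, 8.73 and 8.68 against 6.65, 6.54 and 6.39, 4.67-fold (SE 0.09, adjusted p = 1.83e-10). The lowest RT101 array was far above the highest bFGF-JB6 array in each of these 3 genes. Cenpa, the centromeric histone (2.22), Aurkb, the kinase of the chromosomal passenger complex (2.24), and Cdc20, the activator of the anaphase-promoting complex (2.15), differed by like amounts. Among replication genes the largest differences were those of the clamp loader subunit Rfc4 (2.10), the polymerase alpha subunit Pola1 (1.99), thymidine kinase Tk1 (1.89) and the helicase subunit Mcm5 (1.82), followed by Gins1 (1.81) and the polymerase delta subunit Pold1 (1.76).

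In monolayers the lines differed less in mitosis genes: 12 of 26 were called higher and 1 lower in RT101, with a median of 0.25 (background 23.2% and 21.2% of all genes). The difference between colonies exceeded that between monolayers, tested as an interaction in the same fit, for 22 of 26 mitosis genes and for 15 of 29 replication genes (background 15.0%), and fell short of it for none (background 12.7%). Aurkb is an example: it measured 7.85 and 7.80 in RT101 and 7.91, 7.79 and 7.87 in bFGF-JB6 monolayers, against 8.23, 8.30 and 8.16 in RT101 and 6.07, 6.10 and 5.82 in bFGF-JB6 colonies. Its 3 bFGF-JB6 colony arrays were the low ones, and its RT101 colony arrays lay slightly above both groups of monolayers (interaction 2.27, SE 0.14, adjusted p = 5.35e-08). Tk1 was called in opposite directions, 1.89 in colonies and -0.29 in monolayers (interaction adjusted p = 2.08e-08).

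The regulators of the G1 phase did not move as a block: of 20 measured members 6 were called higher and 4 lower (background 22.7% and 20.7%). Mycn, a MYC family transcription factor, had log2 signals of 5.19, 5.53 and 5.59 in RT101 and 11.15, 11.17 and 11.15 in bFGF-JB6 colonies on its brightest probe set (limma adjusted p = 1.37e-13), and on that probe set the monolayers differed by a like amount (-5.89; interaction 0.17, 95% interval -0.19 to 0.53). Its other 2 probe sets showed no called difference between the colonies (0.07 and 0.26). Its relative Myc was higher in RT101 colonies by 0.72, less than in monolayers (1.74; interaction adjusted p = 0.0011). The CDK inhibitor gene Cdkn1a, which encodes p21, was lower in RT101 colonies, 9.60, 9.65 and 9.56 against 11.19, 11.12 and 11.12, a difference of -1.54 (SE 0.08, adjusted p = 2.21e-09). Cyclin D2, Ccnd2, was lower as well (-1.0), and so was Cdk2 (-0.49). In the other direction stood the pocket protein gene Rbl1 (1.78), which represses E2F targets, and the INK4 inhibitor genes Cdkn2c (1.42; -0.68 in monolayers) and Cdkn2d (1.14). The INK4a/ARF gene Cdkn2a was near the bottom of the scale in both (2.76 ± 0.16 and 2.72 ± 0.15). Cyclin D1, Ccnd1, measured 10.19 ± 0.13 and 10.34 ± 0.31 on its brightest probe set (difference -0.15, adjusted p = 0.445). Its other 2 probe sets stood at 0.014 and 0.178, neither of them called. Without bFGF-JB6 colonies replicate 3, the array of raised 3' signal, 8 members instead of 4 were called lower. Among them was Ccnd1 on its brightest probe set (-0.32, adjusted p = 0.0273).

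Genes of cholesterol synthesis were, beside mitosis and DNA replication, the list with nearly all members higher in RT101 colonies. Of 17 measured enzymes 16 were called higher and 1, Ebp, lower (background 22.7% and 20.7%), 13 higher by 2-fold or more, with a median log2 difference of 1.60. The list runs from mevalonate formation to the last steps of the sterol ring. Promoters of 3 members are shown in the same form (GRCm38.p6, plus strand, RefSeq), because all 14 members with a promoter in the table held a CCAAT box: Idi1 at chr13:8885456-8885655, Pmvk at chr3:89454391-89454590 and Hmgcs1 at chr13:119690201-119690400. Capitals mark CCAAT on either strand and, in Hmgcs1, the sterol element TCACNCCAC.
Idi1: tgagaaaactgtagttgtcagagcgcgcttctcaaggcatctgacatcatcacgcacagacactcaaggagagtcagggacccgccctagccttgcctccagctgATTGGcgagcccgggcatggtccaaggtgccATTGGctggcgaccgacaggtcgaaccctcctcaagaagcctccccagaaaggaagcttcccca
Pmvk: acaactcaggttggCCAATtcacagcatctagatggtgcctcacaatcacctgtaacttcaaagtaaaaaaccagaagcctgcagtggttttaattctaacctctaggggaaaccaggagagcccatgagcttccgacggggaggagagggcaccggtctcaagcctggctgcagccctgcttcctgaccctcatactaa
Hmgcs1: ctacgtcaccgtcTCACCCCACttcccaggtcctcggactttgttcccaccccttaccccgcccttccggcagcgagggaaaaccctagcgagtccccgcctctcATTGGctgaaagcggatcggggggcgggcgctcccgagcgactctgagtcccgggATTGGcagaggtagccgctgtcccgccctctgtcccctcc
CCAAT was found in 82.4% of the list's 17 promoters against 37.4% of all promoters, and the sterol element in 5.9% against 1.2%, that is in Hmgcs1 alone.

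Idi1, the isomerase that makes the second isoprenoid building block, had log2 signals of 9.59, 9.66 and 9.70 in RT101 and 6.73, 6.60 and 6.70 in bFGF-JB6 colonies, 7.83-fold (SE 0.10, limma adjusted p = 2.55e-11). Pmvk, phosphomevalonate kinase, measured 6.88, 6.38 and 6.58 against 3.92, 4.02 and 4.15, 6.0-fold, with the bFGF-JB6 arrays near the bottom of the scale. Fdps, farnesyl diphosphate synthase, measured 9.84, 9.78 and 9.74 against 7.52, 7.26 and 7.02, 5.73-fold (adjusted p = 8.5e-10). Its other probe set stood at -0.17, not called, and the average of both was 1.17. No array of one group reached into the range of the other in these 3 genes. The demethylase gene Cyp51 (2.41), the dehydrogenase gene Nsdhl (1.85) and squalene epoxidase, Sqle (1.76), followed, and Hmgcs1, the first committed synthase of the pathway, differed by 1.19. Ebp, a sterol isomerase, was the exception in colonies (-0.70), and in monolayers it was further apart (-1.90). For all 17 members the difference between colonies was more positive than that between monolayers (interaction, background 15.0%), with monolayer calls of 9 higher and 3 lower and a monolayer median of 0.34. Idi1 measured 7.73 and 7.94 in RT101 and 7.54, 7.26 and 7.28 in bFGF-JB6 monolayers, so its RT101 colony arrays were the highest of the 11.

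The regulators around the pathway were split. Scap, the escort protein of SREBP, was higher in RT101 colonies by 1.32 (adjusted p = 2.46e-07) and Srebf2, which encodes SREBP2, by 0.67 (adjusted p = 0.000888). Stard4, a cytosolic sterol carrier and known SREBP2 target, measured 8.19, 8.26 and 8.24 against 4.92, 4.72 and 5.29, 9.54-fold. Vldlr, a lipoprotein receptor, measured 3.35, 3.36 and 3.30 in RT101 against 7.99, 7.82 and 8.33 in bFGF-JB6 colonies, a log2 difference of -4.71 with RT101 at the bottom of the scale, and the sterol efflux pump gene Abca1 4.58, 4.59 and 4.41 against 7.66, 7.65 and 8.04, 9.56-fold lower. In these genes the groups did not overlap, and averages over probe sets were -2.42 for Vldlr and -2.03 for Abca1; Srebf2 stood at 1.13 by that measure. Npc1, which moves cholesterol out of lysosomes (-1.51), and Mylip, a ligase that degrades lipoprotein receptors (-1.40), were lower, whereas the receptor gene Lrp8 was higher (0.87). In all, 4 of 14 measured members of sterol uptake, sensing and export were called higher and 6 lower (background 22.7% and 20.7%).

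**Figure D2:**
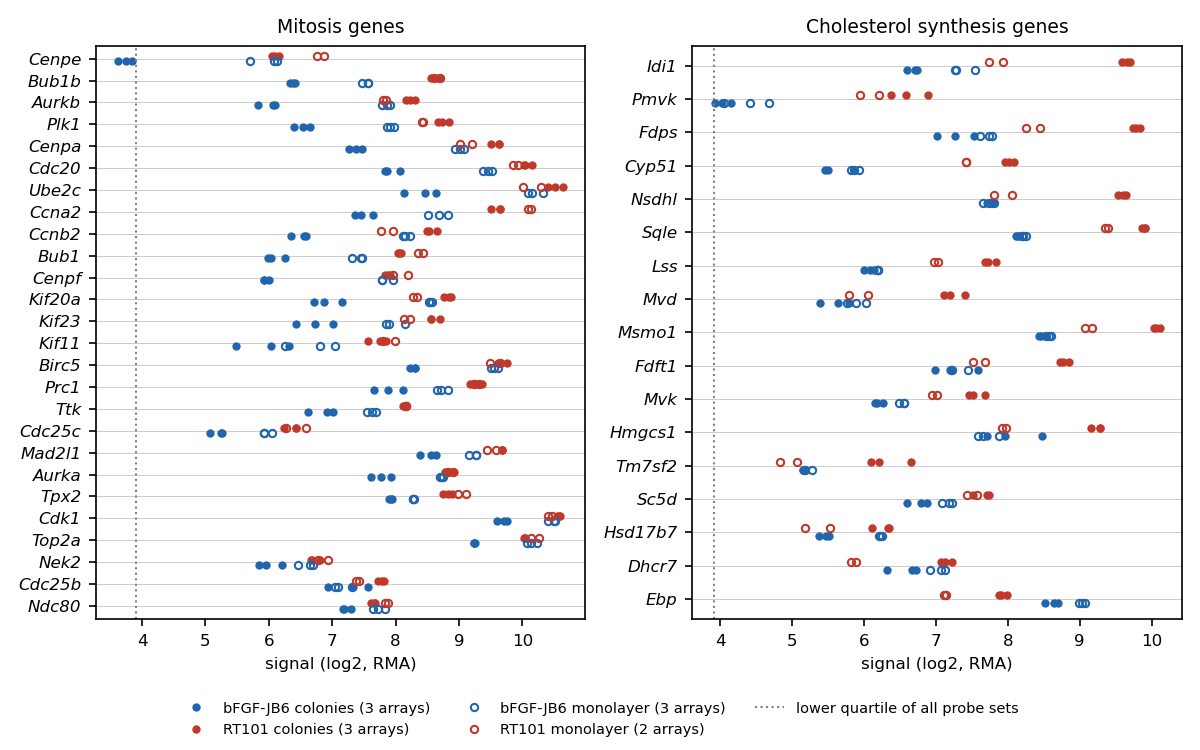
Log2 signals (horizontal axis) of all measured mitosis genes (26, left) and cholesterol synthesis genes (17, right), ordered by the colony difference; filled points are colony arrays, open points monolayer arrays, red RT101 and blue bFGF-JB6, with the dotted line at the highest lower quartile of the arrays. The filled red points lie to the right of the filled blue points in every row except Ebp, and for 24 of the 26 mitosis genes the 3 filled blue points are the lowest of all.

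Fatty acid metabolism did not follow cholesterol synthesis. Of 18 measured genes of fatty acid synthesis and desaturation 4 were called higher and 5 lower (background 22.7% and 20.7%), with a median of 0.03. Acss2, which makes acetyl-CoA from acetate, was higher, 7.20, 6.94 and 6.96 in RT101 against 4.67, 4.28 and 4.84 in bFGF-JB6 colonies, 5.42-fold, and the elongase gene Elovl7 and the desaturase gene Fads2 were higher by 1.39 and 1.16. Fatty acid synthase, Fasn, was lower, 8.19, 8.20 and 8.17 against 9.20, 9.33 and 8.91, a log2 difference of -0.96 (SE 0.11, limma adjusted p = 5.59e-06), and so was Mid1ip1 (-1.08). The stearoyl-CoA desaturase gene Scd1 depended on the probe set: the brightest gave -0.40 (adjusted p = 0.00121), the other 0.43, called in the opposite direction, and their mean 0.01 (adjusted p = 0.916). With the mean of each gene's probe sets, 3 members instead of 5 of this list were called lower.

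Genes of fatty acid uptake, storage and oxidation were more often lower in RT101 colonies, 12 of 23 measured (background 20.7%). Of these 9 were lower by 2-fold or more. In monolayers 13 were lower and 1 higher (background 21.2% and 23.2%), with a median of -0.74 against -0.28 in colonies. The interaction was more positive in colonies for 4 and more negative for 2 (background 15.0% and 12.7%). In colonies 2 were called higher (background 22.7%), by less than 2-fold. Both of these calls were lost with the replicate number as a block, and all but at most 1 when any single colony array was omitted. Ppargc1a, a coactivator of mitochondrial and oxidative genes, had log2 signals of 3.21, 3.13 and 3.33 in RT101 and 7.70, 7.56 and 8.08 in bFGF-JB6 colonies, a log2 difference of -4.56 with RT101 at the bottom of the scale (limma adjusted p = 2.33e-12). Plin2, which coats lipid droplets, measured 10.34, 10.25 and 10.32 against 12.60, 12.65 and 12.70, 5.09-fold lower (adjusted p = 2.39e-11). The arrays of the groups were far apart in both genes, and bFGF-JB6 colonies were the high group. Lipoprotein lipase, Lpl (-2.15), the lipid droplet gene Plin4 (-1.54) and the fatty acid-binding protein genes Fabp4 (-2.76) and Fabp5 (-1.68) were also lower. The average over the probe sets of Fabp4 was -1.41. Fabp4 and Plin4 are fat cell markers too, and were the 2 of 9 measured adipocyte markers called; the list averaged 4.21 to 4.30 on RT101 and 4.61 to 4.85 on bFGF-JB6 colony arrays, with Adipoq near the bottom in both. Fabp5 was higher in RT101 in monolayers (0.29), and the interaction was called (-1.97, adjusted p = 2.14e-07). Of 20 measured genes of glycerolipid and phospholipid synthesis 4 were higher and 8 lower, from Dgat2, an enzyme of triglyceride synthesis (0.63), to the phosphatidate phosphatase Lpin2 (-1.49).

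Of 32 measured collagen chains 10 were called higher and 5 lower (background 22.7% and 20.7% of all genes). Col8a1, a short-chain collagen, had log2 signals of 7.79, 7.63 and 7.61 in RT101 and 4.44, 4.17 and 4.90 in bFGF-JB6 colonies, 9.03-fold (SE 0.15, limma adjusted p = 1.54e-09). Col3a1, a fibrillar collagen chain, measured 12.32, 12.43 and 12.38 against 10.48, 10.44 and 10.32, 3.91-fold, while in monolayers it was lower in RT101 (-0.42; interaction adjusted p = 2.32e-08). The basement membrane chains were split by gene: Col4a5 was higher, 7.29, 6.99 and 7.41 against 4.30, 4.26 and 4.60, and Col4a1 and Col4a2, the chains of ordinary type IV collagen, were lower (-1.42 and -1.82). Col4a2 measured 8.54, 8.45 and 8.33 in RT101 and 10.30, 10.40 and 10.07 in bFGF-JB6 colonies. Type VI chains were split too, with Col6a2 at 1.24 and Col6a3 at -1.62. Col18a1 (1.5), the source of endostatin, and Col5a3 (1.27; average over probe sets 0.68) were higher.

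Basement membrane and adhesive matrix proteins were more often lower. Of 17 measured laminins, nidogens and relatives 1 was called higher and 6 lower (background 22.7% and 20.7%). Nid1, which links laminin to type IV collagen, measured 9.26, 9.33 and 9.27 in RT101 and 11.76, 12.18 and 11.44 in bFGF-JB6 colonies, 5.68-fold lower (SE 0.17, adjusted p = 5.24e-08), and Smoc2, a secreted matricellular protein, was 11.7-fold lower. Fibronectin, Fn1, measured 11.12, 11.18 and 11.10 against 12.90, 12.99 and 12.82, 3.42-fold lower (SE 0.08, adjusted p = 1.2e-09). For both Nid1 and Fn1 the difference was of like size in monolayers (-2.10 and -2.10) and no interaction was called (adjusted p = 0.302 and 0.0702). Of 27 matricellular and elastic fibre genes 5 were higher and 11 lower. Periostin, Postn, was lower in colonies (-2.56), with a monolayer difference of 0.11 (interaction -2.67, adjusted p = 3.75e-08); its bFGF-JB6 colony arrays, at 7.25, 7.03 and 7.21, were the high ones. Ccn3 (-2.31) and Mgp, an inhibitor of calcification (-1.62), were lower, and Thbs3, a thrombospondin (1.09), and Ccn1 (0.89), a ligand of integrins, higher.

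Small leucine-rich proteoglycans, which bind collagen fibrils, held some of the largest differences in both directions. The list of these and of large proteoglycans with hyaluronan genes had 5 higher and 5 lower of 19 measured (background 22.7% and 20.7%). Ogn measured 9.54, 9.51 and 9.53 in RT101 against 4.44, 4.10 and 5.24 in bFGF-JB6 colonies, 30.7-fold higher (adjusted p = 3.7e-10). Aspn measured 8.27, 8.32 and 8.25 against 4.70, 4.27 and 3.71, 16.6-fold higher; in monolayers it was weak in both lines, at 2.87 and 2.68 in RT101 and 2.82, 2.92 and 2.83 in bFGF-JB6. Decorin, Dcn, stood the other way, 5.91, 5.83 and 5.79 against 9.74, 9.63 and 9.62, 14.1-fold lower (adjusted p = 2.02e-12). The monolayer difference of Dcn was larger still (-6.12; interaction 2.30). Biglycan, Bgn, was higher by 0.58 and the hyaluronan receptor gene Cd44 by 0.35 (0.57 over its probe sets), and the hyaluronan synthase gene Has2 was lower (-0.86).

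Of 18 measured enzymes that hydroxylate or cross-link collagen 3 were higher and 10 lower (background 22.7% and 20.7%). Lysyl oxidase, Lox, which starts cross-linking, had log2 signals of 3.82, 5.05 and 4.40 in RT101 and 9.32, 9.34 and 9.03 in bFGF-JB6 colonies, 28.0-fold lower (SE 0.22, limma adjusted p = 8.23e-10). The average over its probe sets was -3.14. All 3 RT101 arrays were low, and the colony difference was larger than that in monolayers (-1.98; interaction -2.83, adjusted p = 2.15e-05). Its relatives Loxl4 (1.12) and Loxl1 (0.60) were higher and Loxl3 (-0.86) was lower.

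The matrix metalloproteinases that were called were lower in RT101 colonies with 1 exception. Of 18 measured members 9 were lower, 7 of them by 2-fold or more, and 1, Mmp9, was higher (background 20.7% and 22.7%). The other 8 were not called, and a second was called higher without bFGF-JB6 colonies replicate 2. In monolayers 10 of 18 were lower and 1 higher (background 21.2% and 23.2%), with a median of -0.74 against -0.47 in colonies. The interaction was more positive in colonies for 5 and more negative for 5 (background 15.0% and 12.7%). The collagenase gene Mmp13 measured 5.68, 5.91 and 5.88 in RT101 and 11.33, 11.42 and 11.45 in bFGF-JB6 colonies, 47.6-fold lower (SE 0.12, adjusted p = 3.2e-13). The gelatinase gene Mmp2 was 24.8-fold lower (SE 0.12, adjusted p = 2.59e-12) and the stromelysin gene Mmp3, at 6.42, 6.26 and 6.44 against 10.83, 10.80 and 10.89, 22.1-fold lower. Every RT101 array of these genes was below every bFGF-JB6 array. Mmp14, the membrane-bound activator of pro-MMP2, measured 8.03, 8.03 and 8.05 against 10.54, 10.66 and 10.66 (-2.58), and Mmp11, stromelysin-3, 6.52, 6.56 and 6.13 against 9.86, 10.07 and 9.47 (-3.40). For Mmp11 the monolayer difference was -0.03 (interaction -3.36, adjusted p = 1.68e-07), and Mmp10 was at -2.50 in colonies and -4.41 in monolayers. The other gelatinase gene, Mmp9, was higher, 7.93, 7.91 and 7.67 in RT101 against 6.27, 6.50 and 6.13 in bFGF-JB6 colonies, 2.90-fold (SE 0.13, adjusted p = 2.51e-07), and lower in RT101 monolayers (-1.60). Its interaction was 3.14 (SE 0.19, adjusted p = 5.6e-08), with monolayer signals of 4.93 and 5.37 in RT101 and 6.82, 6.74 and 6.70 in bFGF-JB6.

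The inhibitors of these enzymes did not follow one direction. Timp2, which both inhibits and helps activate MMP2, was lower (11.37, 11.28 and 11.33 against 12.63, 12.71 and 12.20; -1.19, adjusted p = 1.71e-06), and Timp1 was lower (-0.67) (adjusted p = 0.000319). Reck, a membrane-anchored inhibitor, was higher, 7.83, 7.68 and 7.88 against 6.25, 5.97 and 6.50, 2.94-fold (SE 0.12, adjusted p = 1.59e-07). Timp3 stood at 0.31 (adjusted p = 0.0204), a call that was lost with the mean of its probe sets (adjusted p = 0.541) and without any one of 3 colony arrays: bFGF-JB6 replicate 2 (0.0914), RT101 replicate 1 (0.0675) or RT101 replicate 3 (0.0522). Timp4 stood at 0.01 (adjusted p = 0.971).

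Among membrane sheddases and aggrecanases, 4 of 19 measured ADAM and ADAMTS genes were higher and 9 lower (background 22.7% and 20.7%). Adam8 was the furthest above, 6.91, 7.11 and 7.10 in RT101 against 5.30, 4.89 and 5.11 in bFGF-JB6 colonies (3.84-fold), and was lower in RT101 monolayers (-0.77; interaction adjusted p = 6.52e-08). The sheddase genes Adam10 (0.79) and Adam17 (0.63) were higher, and Adamts1 (-1.85), Adamts7 (-1.84) and Adam23 (-1.74) were lower.

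Cathepsins, most of them lysosomal proteases, were lower where they were called: 8 of 17 measured cathepsins and cystatins, 7 by 2-fold or more, and none higher (background 20.7% and 22.7%). Ctsz measured 3.65, 3.93 and 3.79 in RT101 and 10.12, 9.95 and 9.76 in bFGF-JB6 colonies, 71.2-fold lower (SE 0.10, adjusted p = 2.87e-14), and Ctsh 3.49, 3.15 and 3.38 against 8.47, 8.32 and 8.43, 33.6-fold lower. Both lay at the bottom of the scale in RT101 colonies, and both differed as much in monolayers (-5.85 and -4.99). Legumain, Lgmn (-2.82), Ctsk, a collagen-degrading cathepsin (-2.54), Ctsd (-1.59) and Ctsa (-1.21) were lower too, and for Ctsk the monolayer difference was -0.26 (interaction adjusted p = 1.09e-07). In the plasminogen system 2 of 8 measured genes were called, both lower: tissue plasminogen activator, Plat (-1.21), and Serpinf1 (-0.53).

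Secreted protease inhibitors and other serine proteases added large single differences. Slpi, an inhibitor of neutrophil elastase made by epithelia, measured 7.46, 7.55 and 7.31 in RT101 against 13.17, 13.15 and 12.997 in bFGF-JB6 colonies, 50.6-fold lower (SE 0.09, limma adjusted p = 2.45e-14). Serpina3n, of a family of close copies whose probe sets may read several members, was 9.97-fold lower in colonies and at 0.05 in monolayers (interaction adjusted p = 1.15e-08). The serine protease gene Prss23 was higher, 9.11, 9.32 and 9.27 against 6.62, 6.60 and 6.71, 6.02-fold, and the secreted protease gene Htra1 by 1.15. Of this list of 23 measured genes 2 were higher and 6 lower (background 22.7% and 20.7%).

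**Figure D3:**
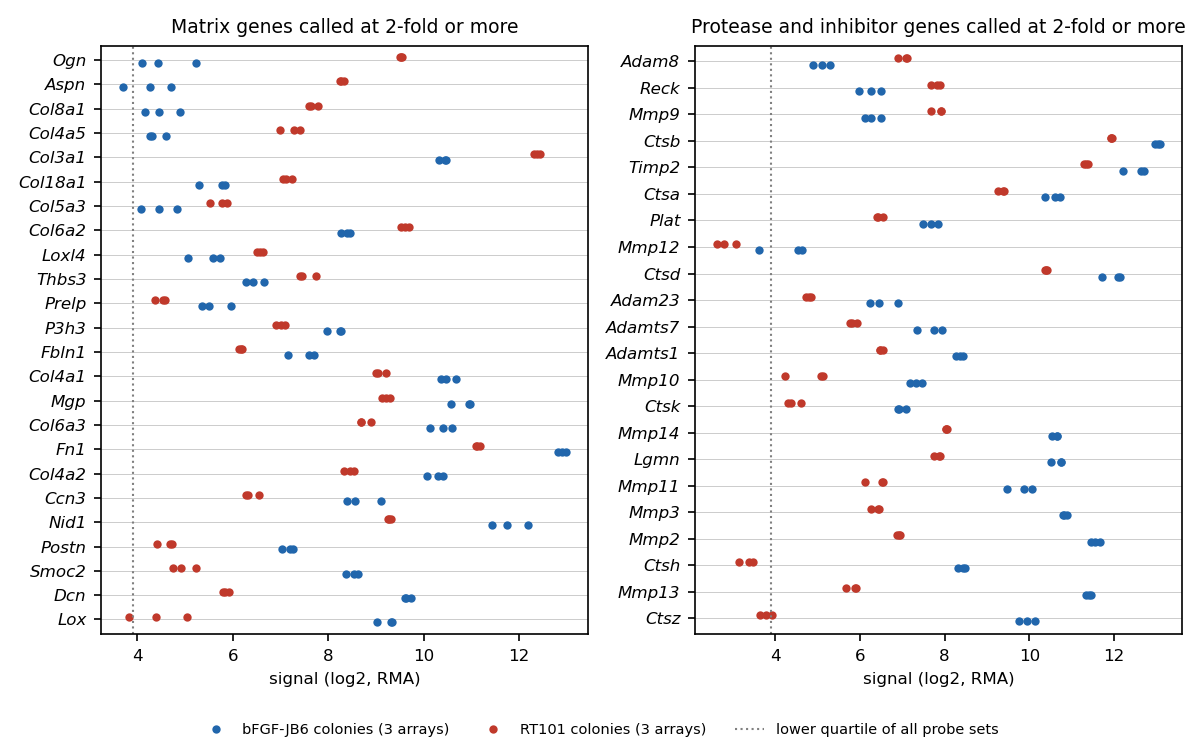
Log2 signals (horizontal axis) of matrix genes (24, left) and of metalloproteinase, TIMP, RECK, ADAM, cathepsin and plasminogen system genes (22, right) called at 2-fold or more between the colonies, ordered by the difference; red points are the 3 RT101 and blue points the 3 bFGF-JB6 colony arrays, with the dotted line at the highest lower quartile of the arrays. Of the matrix genes 10 are higher and 14 lower in RT101 colonies; of the protease and inhibitor genes 3 are higher (Adam8, Reck and Mmp9) and 19 lower.

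At the cell surface, the receptors for matrix and for guidance cues were more often lower in RT101 colonies. Of 16 measured integrins 1 was higher, Itga6 of the laminin receptor (0.43), and 6 were lower; without bFGF-JB6 colonies replicate 3, 2 were higher. Itgb1, the beta chain shared by most matrix-binding integrins, had log2 signals of 8.73, 8.53 and 8.60 in RT101 and 10.39, 10.32 and 9.68 in bFGF-JB6 colonies, 2.85-fold lower (SE 0.17, limma adjusted p = 5.3e-06). Itga5, its partner in the fibronectin receptor, was lower (-0.90), and so was Itgb7 (-1.41). Averages over probe sets were -0.71 for Itgb1, of whose 5 other probe sets 4 were called lower, and 0.24 for Itga6. Of 47 measured ephrins, semaphorins, plexins, Notch and Robo genes 4 were higher and 21 lower (background 22.7% and 20.7%). The ephrin gene Efnb2 measured 4.63, 4.48 and 4.56 against 7.27, 7.21 and 7.07, 6.19-fold lower, and the semaphorin receptor gene Nrp2, also a VEGF-C receptor, was lower (-1.78), while Ephb6 (1.42), Efna3 (1.17) and, on 1 of its 2 probe sets, Notch2 (1.16; average 0.62) were higher.

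Of 34 measured cadherins, nectins and junction genes 8 were higher and 6 lower, shares near those of all genes (22.7% and 20.7%). Cdh11, a cadherin of mesenchymal cells, stood at a log2 difference of -6.82, with RT101 at the bottom of the scale (SE 0.14, adjusted p = 1.98e-13), and Cdh6 (-1.66), Cdh13 (-1.61) and Jam2 (-1.75) were lower. Gja1, the gap junction protein connexin 43, was higher, 11.74, 11.91 and 11.93 against 10.49, 10.61 and 11.04, 2.21-fold, and so were Nectin3 (1.12), Jam3 (0.96) and the tight junction scaffold gene Tjp1 (0.73). N-cadherin, Cdh2, stood at 0.78 on its brightest probe set (adjusted p = 0.00413) and at 0.26 with the mean of its probe sets (adjusted p = 0.0546). Averages over probe sets were -1.0 for Cdh13, -0.95 for Jam2, 0.53 for Jam3, 0.68 for Nectin3 and 0.71 for Ncam1. Among other surface antigens, 8 of 36 were higher and 7 lower. Cd34, a sialomucin of progenitor and stromal cells, measured 10.41, 10.49 and 10.46 in RT101 against 8.75, 8.75 and 8.81 in bFGF-JB6 colonies (1.68), and Ncam1 (1.40), mesothelin, Msln (1.24), and Vcam1 (0.95) were higher. Bst2, an interferon-induced tetherin (-2.14), Cd14, a co-receptor for bacterial lipopolysaccharide (-1.0), and the tetraspanin gene Cd9 (-0.85) were lower.

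Caveolae are surface pits with a coat of caveolins and cavins. Cav1 measured 11.62, 11.77 and 11.70 in RT101 and 8.21, 7.98 and 8.31 in bFGF-JB6 colonies, 11.6-fold higher (SE 0.09, adjusted p = 3.49e-12), and its partner Cav2 was higher by 0.57 (adjusted p = 0.000425). The gap for Cav1 was wider in colonies than in monolayers (1.46; interaction 2.07, adjusted p = 1.68e-07), and Cav2 was lower in RT101 monolayers (-0.45). Myl9, a myosin light chain of contractile cells, was higher by 2.54 and smooth muscle actin, Acta2, by 0.69, both by more in monolayers (3.38 and 2.12). For Cav2 and Acta2 the other probe set was not called in colonies, and the averages were 0.26 and 0.31. The transcription factor gene Snai2, known from epithelial-mesenchymal transition, was lower in RT101 colonies (-1.38) and higher in RT101 monolayers (1.12; interaction adjusted p = 2.86e-07).

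The receptor of the growth factor given to one of the groups was itself different. Fgfr1 had log2 signals of 8.16, 8.08 and 8.13 in RT101 and 11.44, 11.47 and 10.80 in bFGF-JB6 colonies, 8.64-fold lower in RT101 (SE 0.16, limma adjusted p = 3.3e-09), and -2.47 in monolayers. Fgf2, the gene of bFGF, was higher in RT101 colonies, 5.32, 5.37 and 4.82 against 4.24, 4.16 and 3.76, a log2 difference of 1.12 (adjusted p = 0.000487), with bFGF-JB6 arrays near the bottom of the scale. The groups did not overlap for either gene. The heparan sulphate co-receptors were split: the glypican genes Gpc6 (1.38) and Gpc4 (0.89) were higher, and Gpc1 (-1.36) and the syndecan genes Sdc3 (-1.33) and Sdc1 (-1.20) lower; the average of Sdc3 was -0.72. In all, 4 of 23 measured FGF ligands, receptors and co-receptors were higher and 8 lower (background 22.7% and 20.7%).

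Targets and feedback inhibitors of ERK and immediate early genes gave 3 higher and 7 lower of 24 measured (background 22.7% and 20.7%). Their median was 0.01. Egr1, an immediate early transcription factor, measured 7.83, 7.66 and 7.67 in RT101 and 9.05, 9.39 and 9.42 in bFGF-JB6 colonies (-1.57, SE 0.10, adjusted p = 2.81e-08), and Ier3 (-1.21) and Junb (-0.92) were lower. The ERK phosphatase gene Dusp6 (-0.66) and the ERK-induced transcription factor gene Etv4 (-0.76) were lower, while the feedback inhibitor gene Spry2 was higher by 0.82. Egr1 and Dusp6 were further apart in monolayers (-2.59 and -1.32). Errfi1, a feedback inhibitor of the EGF receptor, was higher in RT101 colonies, 9.81, 9.87 and 9.80 against 8.20, 8.13 and 8.41, 2.99-fold, and lower in RT101 monolayers (-0.76; interaction adjusted p = 5.9e-08). Erbb3, an EGF receptor relative, was higher by 1.25. The other probe sets of Spry2 and Erbb3 were not called, and the averages were 0.44 and 0.72.

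Other growth factors and receptors showed large differences in single genes. Csf3, the granulocyte colony-stimulating factor, measured 4.18, 4.36 and 4.66 in RT101 and 9.22, 9.43 and 9.08 in bFGF-JB6 colonies, 28.7-fold lower (SE 0.13, limma adjusted p = 2.59e-12), and Hgf, the ligand of MET, 4.33, 4.41 and 4.30 against 8.04, 7.82 and 7.31, 10.4-fold lower (adjusted p = 3.26e-07). The vascular growth factor genes Vegfc (-1.85) and Vegfa (-1.15) were lower, and for Vegfa the monolayer difference was -0.23 (interaction adjusted p = 0.00126). The PDGF receptor gene Pdgfra was higher, 10.52, 10.58 and 10.56 against 9.34, 9.33 and 9.54 (1.15), and Pdgfrb by 0.62; in monolayers Pdgfrb was lower in RT101 (-2.10). The other probe set of Pdgfrb was not called in colonies, and the average was 0.31. In the TGF-beta group, 9 of 31 were higher and 7 lower (background 22.7% and 20.7% of all genes). Tgfb1 itself measured 7.88, 7.77 and 7.74 against 9.63, 9.82 and 8.84 (-1.64), and its receptor gene Tgfbr1 (-1.29) and the BMP target gene Id3 (-1.35) were lower. The latent TGF-beta-binding protein gene Ltbp4 (1.43) and the BMP antagonist gene Grem1 (0.90) were higher. Of 31 Wnt pathway genes 2 were higher and 6 lower, with Wnt5a, a ligand of non-canonical signalling, at 1.14 and the receptor genes Fzd8 and Lrp5 at -1.53 and -1.33; Fzd2, the other gene called higher (0.41), lost its call without RT101 colonies replicate 1 (adjusted p = 0.0749) or 3 (0.053), or bFGF-JB6 colonies replicate 3 (0.0855).

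Among secreted signals, interleukins were more often lower, while chemokines were called higher at a share near that of all genes. Of 27 measured chemokines 7 were higher and 2 lower (background 22.7% and 20.7%), and of 29 interleukins, TNF family members and alarmins 1 was higher and 12 lower; up to 4 were called higher when single colony arrays were left out, the 4 without bFGF-JB6 colonies replicate 3. Ccl11, which attracts eosinophils, measured 5.94, 5.90 and 6.09 in RT101 against 3.18, 3.22 and 3.52 in bFGF-JB6 colonies, 6.36-fold higher (SE 0.11, adjusted p = 4.04e-10). All 3 bFGF-JB6 arrays were at the bottom of the scale, and the monolayer difference was -0.28 (adjusted p = 0.0927). Ccl5 (1.39), Cx3cl1 (1.22) and the monocyte chemokine gene Ccl2 (0.89) were higher in colonies, and of these Cx3cl1 and Ccl2 were lower in RT101 monolayers (-2.05 and -1.72); the colony average over the probe sets of Cx3cl1 was 0.80. Cxcl12, the ligand of CXCR4, showed the converse, -1.02 in colonies and 1.97 in monolayers (interaction adjusted p = 2.63e-09), and Ccl8 was lower in both (-2.59 and -4.39). Some chemokine genes have close relatives, and their probe sets may read more than 1 gene.

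Tslp, an epithelial cytokine, was the 1 gene higher in its list, 8.83, 8.73 and 8.64 in RT101 against 5.86, 5.53 and 6.04 in bFGF-JB6 colonies, 7.58-fold (SE 0.11, limma adjusted p = 1.46e-10). Its monolayer signals were 8.46 and 8.37 in RT101 and 10.07, 10.12 and 10.10 in bFGF-JB6, so the bFGF-JB6 colony arrays were the low ones of the 4 groups. The receptor antagonist gene Il1rn measured 5.48, 5.26 and 5.07 against 8.81, 8.94 and 8.08, 10.1-fold lower, and Il11, an IL-6 family cytokine, 6.14, 6.04 and 6.10 against 8.70, 8.54 and 8.68, 5.85-fold lower. The groups did not overlap in either gene, and the widest spread was that of Il1rn in bFGF-JB6 colonies. The alarmin gene Il33 was lower in RT101 colonies (-2.53), with RT101 arrays at 3.58, 3.35 and 3.21, and by far more in monolayers (-7.73), where bFGF-JB6 arrays measured 10.76, 10.68 and 10.70.

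Acute-phase and complement genes were lower in 10 of 22 and higher in 2 (background 20.7% and 22.7%). Ceruloplasmin, Cp, the copper-carrying ferroxidase, measured 6.09, 5.95 and 5.92 in RT101 and 9.63, 9.81 and 10.03 in bFGF-JB6 colonies, 14.3-fold lower (SE 0.13, adjusted p = 3.38e-11), and Masp1, a protease of the lectin pathway, stood at -2.36 in colonies and at -0.11 in monolayers (interaction adjusted p = 5.24e-08). Lcn2, a siderophore-binding lipocalin, was lower in colonies (-1.61) and in monolayers (-5.68). The pentraxin gene Ptx3 stood at 0.46 in colonies, 4.71, 4.66 and 5.02 against 4.25, 4.32 and 4.45, and at 5.42 in monolayers, so the gap between the lines was smaller in colonies (interaction adjusted p = 3.1e-10). Of 30 IGF-binding proteins and other secreted carriers 3 were higher and 11 lower. Igfbp7 measured 6.66, 6.80 and 6.60 against 10.71, 10.67 and 10.38, 14.9-fold lower, the apolipoprotein gene Apod was lower (-2.64), and so was Angptl4, an inhibitor of lipoprotein lipase (-2.00). Averages over probe sets were -1.75 for Igfbp7, -1.20 for Angptl4 and -1.32 for Masp1. Adm stood the other way, 7.24, 7.27 and 7.26 in RT101 against 3.97, 3.24 and 3.83 in bFGF-JB6 colonies, a log2 difference of 3.58 with bFGF-JB6 near the bottom of the scale, and as far apart in monolayers (3.84; interaction adjusted p = 0.485).

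Interferon-stimulated genes separated the monolayers more than the colonies. In colonies 6 of 33 measured were higher and 12 lower (background 22.7% and 20.7%), with a median of -0.12. In monolayers 2 were higher and 24 lower (background 23.2% and 21.2%), with a median of -1.09. The interaction was more positive in colonies for 23 and more negative for 2 (background 15.0% and 12.7%). Usp18, a brake on interferon signalling, measured 4.37, 4.52 and 4.67 in RT101 and 6.97, 6.74 and 6.86 in bFGF-JB6 colonies (-2.33), and the antiviral gene Rsad2 4.32, 4.72 and 4.57 against 6.97, 6.55 and 7.25 (-2.39). Ifi27l2a was higher in RT101 colonies, 7.08, 7.05 and 7.16 against 5.12, 4.67 and 4.74 (2.25), and lower in RT101 monolayers (-3.50), where bFGF-JB6 arrays measured 8.67, 8.49 and 8.55. Of 13 antigen presentation genes 6 were higher and 2 lower, all by less than 2-fold; without RT101 colonies replicate 1 or 2 the calls were 3 higher and 1 lower, and 1 was lower without any of 3 other colony arrays (RT101 replicate 3 and bFGF-JB6 replicates 1 and 2). The H2 genes among them belong to a family with near-identical members.

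Targets of ATF4, the transcription factor of amino acid stress, showed the same kind of contrast in the opposite direction. In colonies 3 of 28 were higher and 14 lower (background 22.7% and 20.7%), with a median of -0.27. In monolayers 21 were higher and 3 lower (background 23.2% and 21.2%), with a median of 1.36. The interaction was more negative in colonies for 24 and more positive for none (background 12.7% and 15.0%). Chac1, which degrades glutathione, measured 7.39, 7.20 and 7.12 in RT101 and 8.70, 8.46 and 8.55 in bFGF-JB6 colonies, against 10.79 and 10.82 in RT101 and 8.17, 8.07 and 8.20 in bFGF-JB6 monolayers. The RT101 monolayer arrays were the highest and the RT101 colony arrays lower than those of bFGF-JB6 colonies. Trib3 (-1.08 in colonies, 2.47 in monolayers) and the cystine transporter gene Slc7a11 (-1.75 and 1.67) had the same order of signs. The stress transcription factor gene Ddit3, which encodes CHOP, was lower in RT101 in colonies (-2.43) and in monolayers (-0.53).

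**Figure D4:**
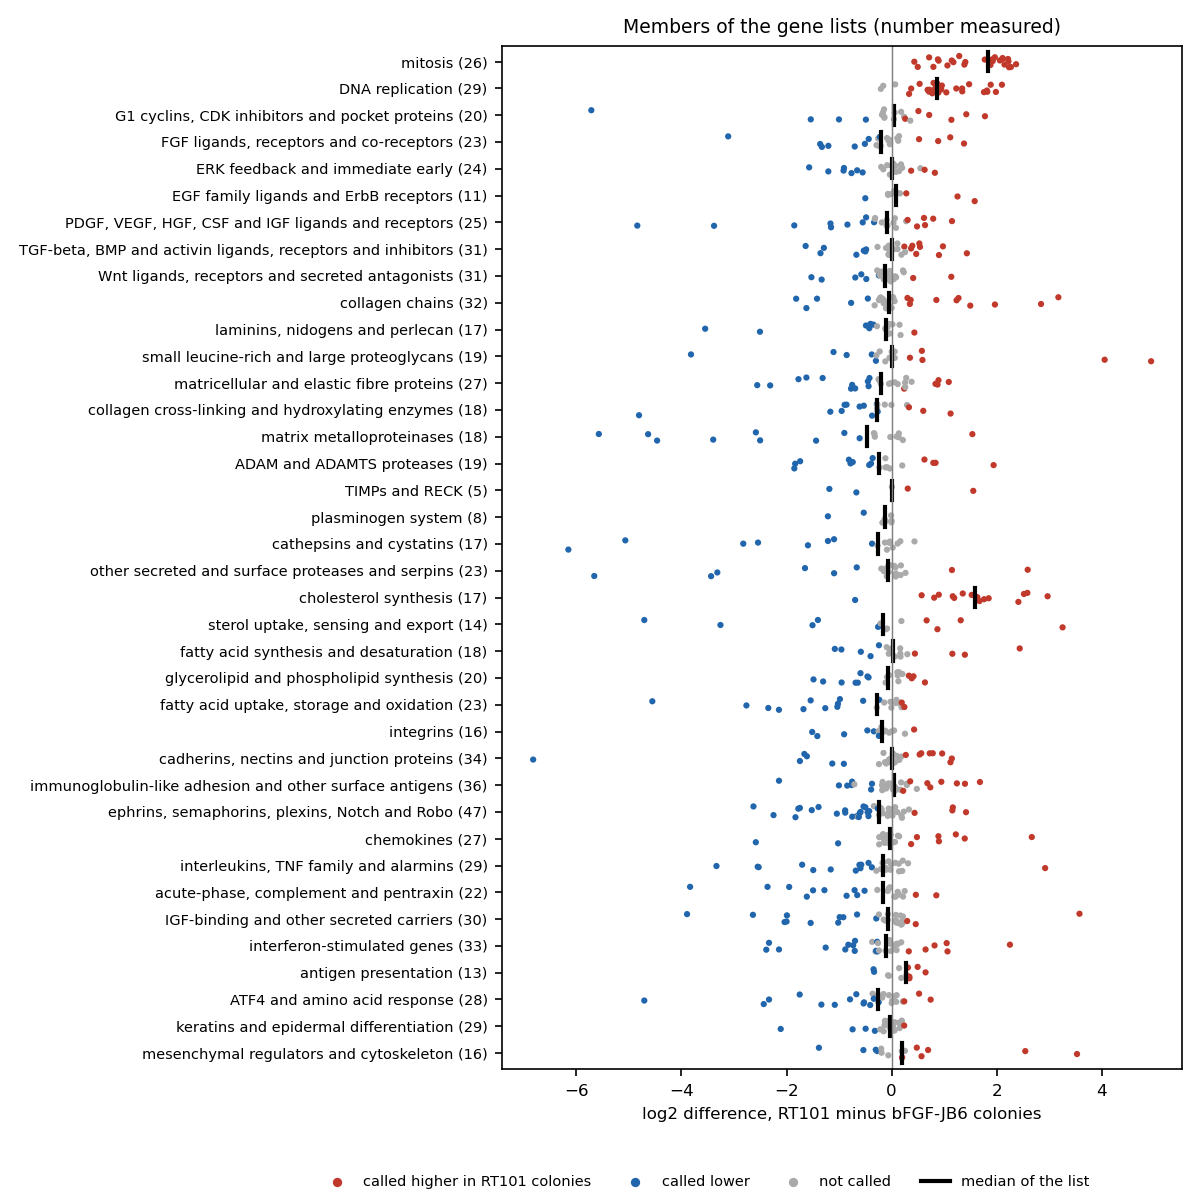
Log2 differences between RT101 and bFGF-JB6 colonies (horizontal axis, positive is higher in RT101) for measured members of the gene lists, 1 row per list with the number measured in brackets. The fibroblast, macrophage, endothelial, adipocyte, skeletal muscle and melanocyte marker lists are not drawn. Red points were called higher, blue lower and grey not called, and black bars are list medians. Mitosis (median 1.83), cholesterol synthesis (1.60) and DNA replication (0.87) lie to the right, and the bar of the matrix metalloproteinases lies at -0.47.

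Of 18 macrophage markers 2 were called higher and 4 lower in RT101 colonies (background 22.7% and 20.7%). Of the 18, 7 were near the bottom of the scale in both groups. Without bFGF-JB6 colonies replicate 1, RT101 colonies replicate 2 or RT101 colonies replicate 3, 1 was higher. Cd68, a lysosomal glycoprotein abundant in macrophages, measured 3.56, 3.64 and 3.41 in RT101 and 8.39, 8.31 and 8.24 in bFGF-JB6 colonies (-4.77, adjusted p = 1.79e-13), in the direction of the cathepsins, and the CSF1 receptor gene Csf1r 4.81, 4.88 and 4.75 against 5.82, 5.84 and 6.27 (-1.16). The pan-leukocyte gene Ptprc stayed near the bottom of the scale in both kinds of colony; the part of these markers in the protease results was not tested. The average over the probe sets of Csf1r was -0.62. The lysozyme gene Lyz2, with a near-identical copy, was higher (1.11). Of 17 fibroblast markers 5 were higher and 7 lower, Dcn, Postn and Fbln1 (-1.31) on one side and Col3a1, Cd34 and Pdgfra on the other. The fibroblast list averaged 7.98 to 8.04 on RT101 and 8.27 to 8.32 on bFGF-JB6 colony arrays, and the part of these markers in the matrix results was not tested. Of 13 endothelial markers 2 were called, both lower (4.18 to 4.21 against 4.24 to 4.32 on average), and of 7 melanocyte markers 2, both lower, among them Mitf (-1.91, -1.27 over its probe sets; list averages 4.18 to 4.31 against 4.54 to 4.69). Without bFGF-JB6 colonies replicate 3, 1 melanocyte and 1 adipocyte marker were called higher, the latter also without RT101 colonies replicate 1. Skeletal muscle markers averaged 3.83 to 3.95 on RT101 and 3.84 to 3.95 on bFGF-JB6 colony arrays.

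The monolayers differed in 5504 genes (44.4% of 12393), and no array of that comparison is part of the colony comparison. Of the 2809 genes higher in RT101 colonies, 1727 were also higher in RT101 monolayers (61.5% of the colony list and 59.9% of the monolayer list), 834 were not called there and 248 were called lower. Of the 2563 genes lower in RT101 colonies, 1592 were also lower in monolayers (62.1% and 60.7%), 761 were not called and 210 were higher. Of all genes, 23.2% were higher and 21.2% lower in RT101 monolayers, and 22.7% and 20.7% in RT101 colonies. At 2-fold or more in each, 256 of 630 higher genes were shared (40.6% of the colony list and 38.8% of the monolayer list). The same held for 395 of 617 lower genes (64.0% and 46.0%). At 2-fold, 5.08% of all genes were higher and 4.98% lower in RT101 colonies. The difference between colonies departed from that between monolayers for 3430 genes (27.7%), 1856 (15.0%) in the positive and 1574 (12.7%) in the negative direction; with median centring of each array this split was 1584 and 2057. Cdh11, Ctsz, Mmp2 and Ppargc1a had large differences in both comparisons and no called interaction, with monolayer differences of -6.45, -5.85, -4.51 and -4.90. Of the 348 genes taken up by the naming rule, 37 were called in opposite directions in colonies and monolayers, among them Mmp9, Adam8, Tslp, Col3a1, Gja1 and Tk1, higher in RT101 colonies, and Cxcl12, Snai2, Fabp5 and Chac1, lower there.

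**Figure D5:**
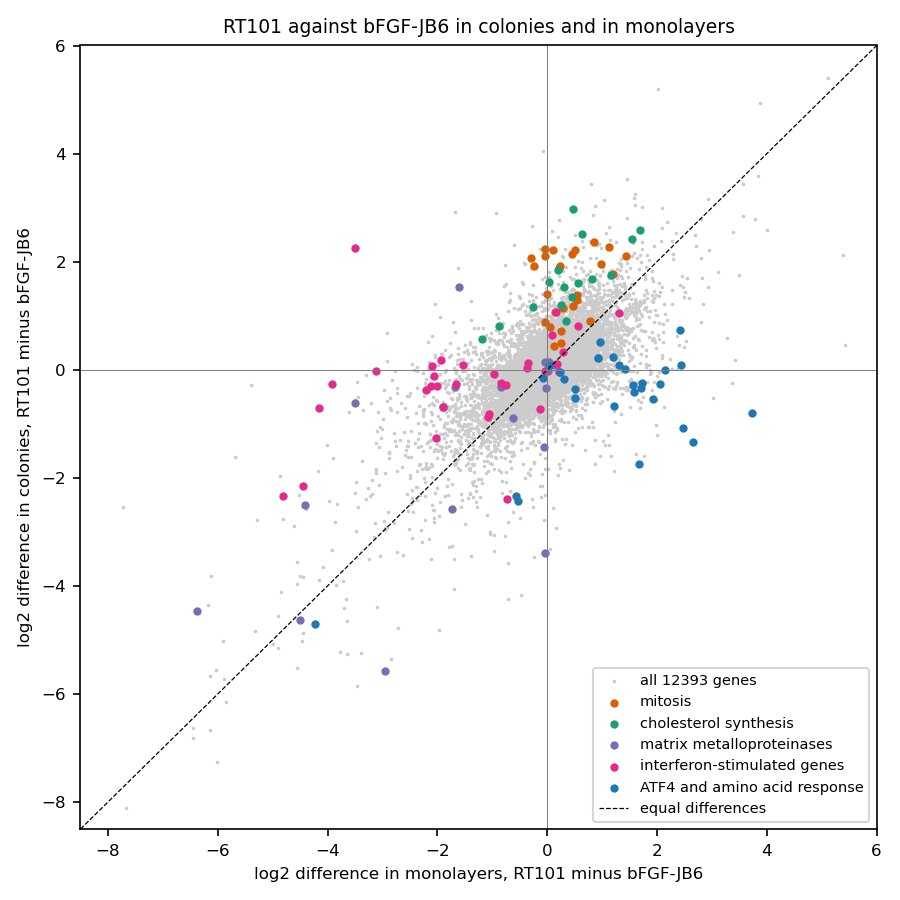
Log2 difference between RT101 and bFGF-JB6 cells in colonies (vertical axis) against that in monolayers (horizontal axis) for all 12393 genes (grey), with 5 gene lists in colour; the dashed line marks equal differences, and the comparisons share no arrays. Mitosis and cholesterol synthesis genes lie above the line (list medians 1.83 and 1.60 in colonies, 0.25 and 0.34 in monolayers), interferon-stimulated genes spread to the left (median -1.09 in monolayers) and ATF4 genes to the right (1.36).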

How the data were processed

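Biotin-labelled cRNA from total RNA was read on Affymetrix mouse arrays, with 1 sample on each; groups and replicate numbers came from titles. The deposited values are log2 signals, and the submitters' processing notes name RMA as the authors' method (version and settings not given in the sources used here); they were used as deposited, without a filter on low values, and have no counts or detection calls behind them. Of 22690 probe sets, 20380 named a single gene in the platform annotation (691 several, 1555 none, 64 controls); the brightest over all arrays stood for each of 12393 genes.

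All 11 arrays were fitted at once with limma 3.58.1 (R 4.3.3), group as the only term and eBayes variances (7 residual and 6.12 prior degrees of freedom); Benjamini-Hochberg adjustment ran over the 12393 genes. SE and 95% intervals are moderated and on the log2 scale. A fit without the replicate block was the main one. Deviations of same-numbered RT101 and bFGF-JB6 colony arrays from their group means correlated at 0.32, 0.11 and 0.23, other pairs at -0.23 to 0.02. Deviations within a group cancel out, so higher values in some pairs come with lower values in others. These correlations alone do not decide whether the numbers pair the arrays, and the labels do not say what a number marks. Title numbers and description letters match the RT101 monolayers to different arrays of the other groups. The procedure was tested on simulated data whose noise was independent between arrays, so that test does not bear on shared replicate deviations.

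The comparison, the 44 gene lists and the genes always named were chosen with earlier results of these data known, and no set test was run. Named were the 12 genes with the largest difference in each direction among called genes whose colony groups do not overlap, up to 6 called members per list and direction, all members of lists of up to 6, and 19 genes always, of which 17 were measured. Hmgcs1, Krt14, Ptprc, Pecam1 and Adipoq were named outside it, after their values were seen. List members without a single-gene probe set were not analysed here. Alternatives were a replicate block by title number or description letter, the 6 colony arrays alone, the mean of probe sets, all probe sets, array weights, cyclic loess, centring on array medians, a variance with trend and robust estimation, only the brighter genes (at or above the median gene), a 2-fold minimum and each array left out; the omission of both arrays with raised 3' signal was chosen after seeing the data. Single monolayer arrays were left out for the interaction only, and single colony arrays for both comparisons. Promoter windows came from RefSeq (GRCm38.p6). Figures were drawn with matplotlib 3.10.9.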

Additional observations from a re-analysis of the deposited data

Results flagged for a closer look

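For 14 of the named genes the difference between RT101 and bFGF-JB6 colonies departed from that between the monolayers by 3 or more on the log2 scale, each with a called interaction in limma (adjusted p from 1.01e-10 to 1.68e-07). The departures were positive for the interferon-induced gene Ifi27l2a (5.75; 2.25 in colonies and -3.50 in monolayers), the cytokine genes Il33 (5.201) and Tslp (4.599), the proteoglycan gene Aspn (4.14), Lcn2 (4.07), the chemokine gene Cx3cl1 (3.27), Olfm1 (3.18) and the gelatinase gene Mmp9 (3.14; 1.54 and -1.60). They were negative for Mmp11 (-3.36; -3.40 and -0.03), Serpina3n (-3.37), the amino acid response genes Slc7a11 (-3.42), Trib3 (-3.55) and Chac1 (-3.997), and the pentraxin gene Ptx3 (-4.96; 0.46 and 5.42). Il33 and Lcn2 were lower in RT101 in colonies and in monolayers, and their positive values come from a smaller gap in colonies. With 3 arrays in each colony group, single genes were not searched for outlying arrays; over all genes bFGF-JB6 colonies replicate 3 stood apart, with an array weight of 0.291 against 0.721 to 2.238 for the other colony arrays.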

How the results depend on the processing

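Of 348 named genes, 343 were called, and 299 of these kept direction and call under every alternative run for single genes. That leaves out the 2-fold minimum, the test of all probe sets and the omission of single monolayer arrays. The fit of brighter genes covers only genes at or above the median. Scd1 reversed to 0.013 (adjusted p = 0.916) with the mean of its probe sets; another probe set was called against the brightest for Scd1 and H2-D1. All 26 mitosis genes stayed called higher except under the 2-fold minimum (20) and where only brighter genes were tested (24). The replicate block by title number gave 5291 genes called against 5372. With the 6 colony arrays alone it gave 5379, against 5078 without the block. It moved no count of genes called by more than 1.5 times. Of the list counts it moved that of fatty acid uptake, storage and oxidation genes called higher (2, then 0). With all probe sets tested separately 8269 probe sets were called, 4285 higher and 3984 lower. With a 2-fold minimum 1247 genes were called, 630 higher and 617 lower, the 1 lower cholesterol synthesis gene was no longer called (0), and the interaction gave 968 genes, 582 positive and 386 negative. Leaving out single arrays gave 4770 to 5558 genes called for the colonies (2511 to 2929 higher, 2259 to 2629 lower) and 2666 to 3664 for the interaction (1461 to 1968 and 1205 to 1696). Array signals near the bottom of the scale limit what can be said of differences that start or end there.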
